A study of Mus musculus with 20 samples.

Results

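The 38 genes described here encode proteins of the presynaptic vesicle and of the machinery that releases it. They were chosen as a list of gene names, with earlier results of these data known. All 38 are in the messenger RNA table, among 21949 genes, and all 38 are among the 13722 genes with a mean level high enough to test. RNA came from frozen cerebral cortex of mice on a (C57BL/6 x C3H)F1 background. The transgenic mice (TG) carry Tg(Prnp-MAPT*P301S)PS19Vle, in which the mouse prion protein promoter drives human tau with the P301S mutation, and the wild type mice (WT) do not. Mice were 3 or 10 months old, which gives the groups WT03M, TG03M, WT10M and TG10M with 5 libraries each. The labels do not say that each library is a separate animal, so every p-value measures only the spread between these libraries.

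A presynaptic terminal stores transmitter in small vesicles that dock at the active zone, are primed, and fuse when calcium enters. Fusion is driven by SNARE proteins on the vesicle and the plasma membrane, timed by complexins and by calcium sensors of the synaptotagmin family, and reset by NSF with its SNAP cofactors. Synapsins hold the reserve vesicles near the terminal, and the scaffolds Bassoon, Piccolo, RIM and MUNC13 organise the release site. Loss of synapses is a known feature of mice of this kind, which model tauopathy.

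A pair of coding exons of Snap25 is shown first, because Snap25 is the most abundant member and the deposited tables separate its transcripts by them. Both lie on the plus strand of chromosome 2 in GRCm38, each is exon 5 of its transcript, and each is 118 bases long. Snap25-201 uses chr2:136770057-136770174 and Snap25-202 uses chr2:136769743-136769860. Capitals mark the 31 bases that differ, and identity is 73.7%.
Snap25-201 exon: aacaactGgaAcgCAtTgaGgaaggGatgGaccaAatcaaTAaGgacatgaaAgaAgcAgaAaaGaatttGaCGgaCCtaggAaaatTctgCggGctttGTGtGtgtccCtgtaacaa
Snap25-202 exon: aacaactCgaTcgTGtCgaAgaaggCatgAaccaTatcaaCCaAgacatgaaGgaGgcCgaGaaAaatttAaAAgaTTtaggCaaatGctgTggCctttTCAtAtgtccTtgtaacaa

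Synapsin I is also deposited as a pair of transcripts, and Syn1 had the largest 3-month genotype difference of the list. Syn1-201 starts its last exon, exon 13, 38 bases earlier than Syn1-202, at chrX:20861572-20861609 on the minus strand of GRCm38, and those bases are coding.
Syn1-201 extra bases: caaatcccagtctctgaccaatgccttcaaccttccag

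Promoters are shown for Syn1, and for Napa, the one member whose level was highest in the 3 libraries that stand apart, described further on. The sequences are from RefSeq on GRCm38.p6 and stop where the annotated transcripts begin. Searches covered the 250 bases before each RefSeq start, on both strands, for TTCAGCACC (the left part of the RE1 element bound by the repressor REST), TGACGTCA (the cyclic AMP response element, CRE) and CACGTG (an E-box). Capitals mark the matches.
Syn1 promoter, chrX:20921005-20921168, minus strand: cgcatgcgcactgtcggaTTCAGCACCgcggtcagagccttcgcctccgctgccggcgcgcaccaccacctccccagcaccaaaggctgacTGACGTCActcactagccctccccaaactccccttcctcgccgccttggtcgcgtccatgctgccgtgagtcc
Napa promoter, chr7:16098330-16098457, plus strand: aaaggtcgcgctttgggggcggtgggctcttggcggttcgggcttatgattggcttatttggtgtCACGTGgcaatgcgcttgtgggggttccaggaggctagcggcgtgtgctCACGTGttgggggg
RefSeq promoters were matched for 29 of the 38 genes, 39 promoters in all. The RE1 letters were in 0.301% of all 32851 promoters and, among the members, in Syn1 only. The CRE letters were in 1.55% of all promoters and, among the members, in Syn1 only. The E-box was in 6.02% of all promoters and in 5 of the 39 member promoters, those of Cplx3, Napa, Nsf, Sv2b and Unc13b. A match of letters is a description and not a binding site.

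Library facts that touch the results are few. The depth that the steps of low values imply was 22.6 to 30.1 M fragments per library (M, mega). FPKM is the number of fragments per kilobase of transcript and per mega mapped fragments, and a gene's level here is the sum over its transcripts. Prnp, whose promoter drives the transgene, was at 695 to 841 FPKM in the 10 TG libraries and at 412 to 528 in the 10 WT libraries, so the genotype labels fit it in every library. 3 libraries, WT10M replicate 5 and TG10M replicates 1 and 5, stood apart from the 17 others on the first principal component of all tested genes, at 26.2 to 30.9 against -12.1 to 2.52, and this component held 23.9% of the variance. Most comparisons of 10-month groups are given with and without them, and some single genes and marker lists with all libraries only. As for the labelled tissue, all 11 cortical excitatory neuron markers had a mean of at least 0.5 FPKM, and their sum was 272 to 469 FPKM over the 20 libraries.

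The presynaptic genes were abundant transcripts of this tissue. 16 members had a mean of at least 100 FPKM, 19 lay from 10 to under 100, and 3 lay under 10. Snap25, the plasma membrane SNARE, was by far the highest at 1627 FPKM, followed by the vesicle membrane protein gene Syp at 412, the vesicle GTPase gene Rab3a at 325, Slc17a7 (vesicular glutamate transporter 1) at 312 and the fast calcium sensor gene Syt1 at 307. Slc17a6, the vesicular glutamate transporter typical of subcortical neurons, had 10.1 FPKM. Sv2c at 9.34, Cplx3 at 5.85 and Syn3 at 3.75 were the lowest. The coefficient of variation over all 20 libraries had a median of 9.0%, from 2.79% in Nsf, the ATPase that takes SNARE complexes apart, to 18.9% in Sv2c.

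**Figure D1:**
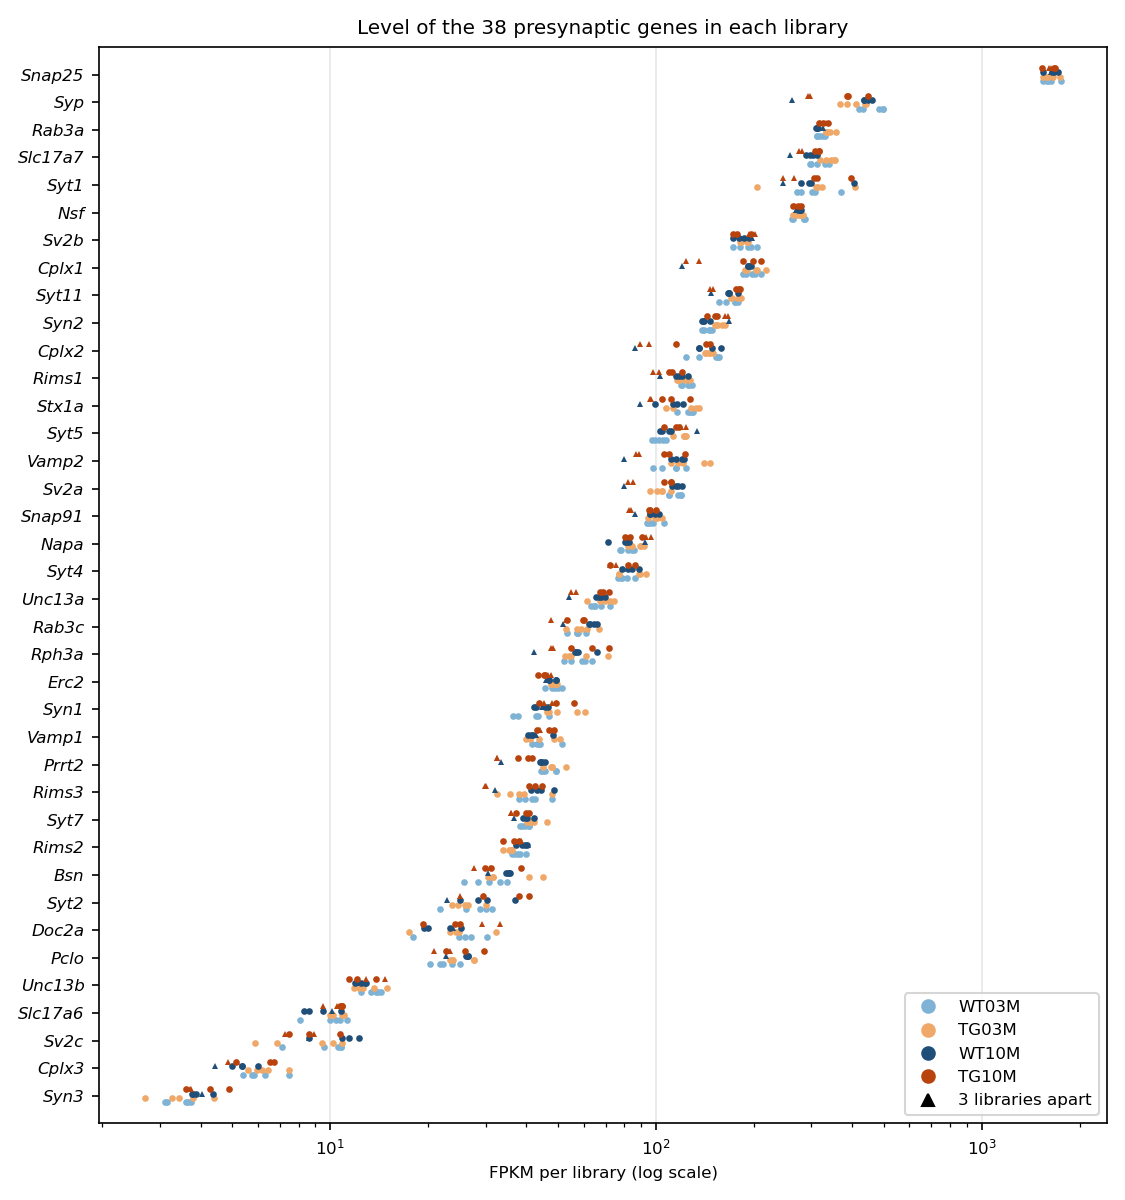
Each point is 1 library's FPKM (log axis) for 1 of the 38 presynaptic genes, ordered by mean level and coloured by group, with triangles for the 3 libraries apart. Snap25 lies alone near 1627 FPKM, and the triangles lie to the left of the other points in genes such as Syp, Cplx1 and Cplx2.

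At 10 months none of the 38 genes passed the test between TG10M and WT10M. The test was limma across all tested genes with Benjamini-Hochberg adjusted p under 0.05, on log2(FPKM + 0.5), a scale that understates changes of low genes. Over all genes 0.634% passed, 0.583% as risen and 0.051% as fallen, so a count of 0 of 38 is near the background. Without the 3 libraries apart the count was also 0, where 1.28% of all genes rose and 1.09% fell. 2 members had an unadjusted p under 0.05, against 14.1% of all genes. The median log2 difference of the members was -0.02 (-0.01 without the 3 libraries apart), beside 0.00 over all genes, and 23 of 38 differences were smaller than 0.1 in size. The 95% interval lay within 0.5 on the log2 scale, in either direction, for 36 of the 38. In bulk tissue, fewer cells of a type and less RNA per cell cannot be told apart.

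Prrt2 and Rab3c were the members with the smallest p at 10 months. Prrt2 encodes a presynaptic membrane protein that binds SNARE proteins and is mutated in paroxysmal movement disorders. The gene, ENSMUSG00000045114, lies at chr7:127017531-127021211 on the minus strand. It was at 45.6, 44.5, 44.8, 43.9 and 33.4 FPKM in WT10M replicates 1 to 5, and at 32.6, 37.7, 40.5, 41.6 and 32.5 in TG10M. The low values are the 3 libraries apart, and among the 7 others every TG10M library was below every WT10M library. The log2 difference was -0.20 (SE 0.08, limma adjusted p = 0.295). Within the 7 other libraries it was -0.16, and within the 3 apart it was -0.04. Without WT10M replicate 5 alone, which leaves both remaining libraries of the set in TG10M, it was -0.28 with an adjusted p of 0.0156 by limma. Far more of all genes passed in that fit than in the fit of all libraries.

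Rab3c, a RAB3 GTPase of vesicles, was at 62.6, 65.8, 64.7, 62.5 and 51.8 FPKM in WT10M and at 47.7, 53.5, 60.3, 59.6 and 52.9 in TG10M. The groups overlapped only through WT10M replicate 5. The log2 difference was -0.16 (SE 0.07, limma adjusted p = 0.326). Without WT10M replicate 5 alone, which leaves TG10M replicates 1 and 5 in, it was -0.23 with a limma adjusted p of 0.0382. In the same fit Syn2 passed as higher, at 0.14 (limma adjusted p = 0.039). Without all 3 libraries apart the difference of Rab3c was -0.15, with a limma adjusted p of 0.291. With all libraries, no member's 10-month groups were free of overlap, against 1.65% of genes with TG10M higher and 0.729% lower. Without the 3 libraries apart, Rab3a was higher (8.78% of all genes were) and Rab3c, Sv2a, Erc2 and Prrt2 were lower (9.08%) with no overlap.

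The neighbouring values of the 10-month comparison belonged to several roles. Napa, the SNAP cofactor of NSF, was at 81.7, 71.0, 80.1, 82.4 and 92.5 FPKM in WT10M and at 96.5, 90.4, 80.5, 83.3 and 93.3 in TG10M, a log2 difference of 0.12 (SE 0.06). Slc17a6 was at 8.30, 10.8, 9.50, 8.58 and 10.1 in WT10M and at 9.53, 10.9, 10.9, 10.7 and 10.5 in TG10M, a log2 difference of 0.15 (SE 0.08). Rims2, a RIM scaffold of the active zone, was at 40.3, 37.2, 38.9, 39.6 and 40.5 in WT10M and at 38.1, 34.0, 36.6, 37.9 and 38.5 in TG10M, a log2 difference of -0.09 (SE 0.04). All 3 genes overlapped between genotypes and did not pass the limma test, with adjusted p of 0.373, 0.394 and 0.361. Without the 3 libraries apart their log2 differences were 0.10, 0.22 and -0.11, with limma adjusted p of 0.41, 0.26 and 0.25.

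The lowest-expressed member of the SV2 glycoprotein family, Sv2c, had the largest 10-month difference by size, -0.25, and also a wide 95% interval, from -0.58 to 0.08. Snap25 (ENSMUSG00000027273) had similar values in both genotypes. It was at 1710, 1545, 1637, 1667 and 1630 FPKM in WT10M and at 1612, 1679, 1531, 1663 and 1633 in TG10M. The log2 difference was -0.01, with a 95% interval from -0.11 to 0.09. Its transcript Snap25-201 held 89.9% of the gene's FPKM on average, and over the 20 libraries that share stayed between 88.1% and 91.2%. Snap25-202, which uses the other exon printed above, was at 143 to 183 FPKM.

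At 3 months none of the 38 genes passed the limma test between TG03M and WT03M with all 20 libraries in the fit, against 0.299% of all genes (0.277% rose and 0.0219% fell). 5 members had an unadjusted p under 0.05, where 10.6% of all genes did, and these were Syt5, Syn1, Rab3a, Syn2 and Rims2. The median log2 difference was 0.02, beside 0.00 over all genes, and 27 of 38 were smaller than 0.1 in size. The 3 libraries apart are all 10-month libraries, but they enter the one estimate of spread that the groups share. Without them, 3 members rose (Syt5, Syn1 and Syn2; 1.53% of all genes rose) and 1 fell (Sv2a; 1.92% fell), with the same log2 differences.

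Syt5 (ENSMUSG00000004961, chr7:4539765-4547541, minus strand), which encodes a calcium-binding synaptotagmin, was at 107, 105, 97.4, 102 and 99.6 FPKM in WT03M and at 122, 123, 122, 113 and 124 in TG03M. Every TG03M library was above every WT03M library. The log2 difference was 0.24 (SE 0.06, limma adjusted p = 0.123), and without the 3 libraries apart the adjusted p was 0.00228. It also passed in a fit of only these 10 libraries, with a limma adjusted p of 0.0127. Both of its main transcripts were higher, Syt5-201 at 63.4 ± 2.53 against 72.4 ± 3.26 FPKM and Syt5-202 at 37.7 ± 2.60 against 47.6 ± 3.85 (SD, n = 5 each).

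Syn1 (ENSMUSG00000037217, chrX:20860511-20921004, minus strand), the gene of synapsin I, was at 46.9, 43.4, 37.8, 36.4 and 42.7 FPKM in WT03M and at 46.2, 49.7, 46.9, 57.1 and 60.7 in TG03M. The groups met at their edges, and TG03M replicates 4 and 5 held the highest values of all 20 libraries. The log2 difference was 0.32 (SE 0.08, limma adjusted p = 0.125), and the adjusted p was 0.0491 without the 3 libraries apart. Syn1-201, which holds the 38 extra bases, was at 19.7 ± 3.62 FPKM in WT03M and 26.5 ± 3.96 in TG03M, and Syn1-202 at 21.8 ± 4.31 and 25.6 ± 2.61 (SD, n = 5 each). The transcripts were near equal, with Syn1-201 at 48.0% of the gene on average over the 20 libraries.

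Synapsin II, encoded by Syn2, was at 149, 138, 140, 146 and 145 FPKM in WT03M and at 152, 154, 163, 159 and 154 in TG03M, with no overlap. Its log2 difference was 0.12 (SE 0.05, limma adjusted p = 0.403), and without the 3 libraries apart the adjusted p was 0.0422. The third synapsin gene, Syn3, differed by 0.01 with a 95% interval from -0.19 to 0.22. Rab3a was at 331, 312, 313, 319 and 325 in WT03M and at 333, 334, 341, 333 and 358 in TG03M, again with no overlap, a log2 difference of 0.09 (SE 0.03, limma adjusted p = 0.373). Syt5, Syn2 and Rab3a were the 3 members higher without overlap, where 2.01% of all genes were.

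Lower values at 3 months were found in a few scaffold and membrane genes. Rims2 was at 36.8, 38.3, 37.8, 36.1 and 39.8 FPKM in WT03M and at 36.1, 35.8, 33.9, 35.4 and 36.0 in TG03M, the only member lower without overlap (2.47% of all genes were), with a log2 difference of -0.09 (SE 0.04, limma adjusted p = 0.455). Sv2a, the vesicle glycoprotein that binds levetiracetam, was at 119, 110, 110, 117 and 119 in WT03M and at 111, 104, 104, 95.6 and 101 in TG03M, with a log2 difference of -0.16 (SE 0.10, limma adjusted p = 0.607). It fell only in the fits without the 3 libraries apart (adjusted p = 0.0325) or with a term for them (0.0321). Sv2a was named after its values were seen.

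Other measures moved with the 3-month genotype groups. The mitochondrial transcript mt-Co1 was at 5998 to 6549 FPKM in WT03M, at 8514 to 10633 in TG03M and at 11182 to 13045 in the 3 libraries apart. The first principal component ordered them alike, at -12.1 to -6.37 in WT03M and -1.90 to 2.34 in TG03M. Both also differed by genotype at 10 months outside the 3 libraries apart. There mt-Co1 was at 6379 to 6915 FPKM in WT10M and 8627 to 8899 in TG10M, and the component at -11.0 to -6.34 and -1.37 to 2.52. The chaperone gene Hsp90aa1 was at 13.9 to 20.5 FPKM in the 3 libraries apart and in TG03M replicates 2 to 5, and at 532 to 687 in the 13 others. Summed oligodendrocyte markers were at 1489 to 1657 FPKM in WT03M and 1719 to 2069 in TG03M, with no overlap and 8 of 9 markers higher. Summed inhibitory neuron markers were at 598 to 654 in WT03M and 653 to 736 in TG03M. Yet only 4 of these 10 markers were higher and 6 were lower, with a median log2 difference of -0.01. All 10 striatum markers were lower in TG03M (median log2 difference -0.20) and all 6 choroid plexus markers were higher (median 0.99), none past the test. The sums of both lists overlapped between genotypes. The part of these measures in the Syt5, Syn1, Syn2 and other 3-month values was not tested.

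**Figure D2:**
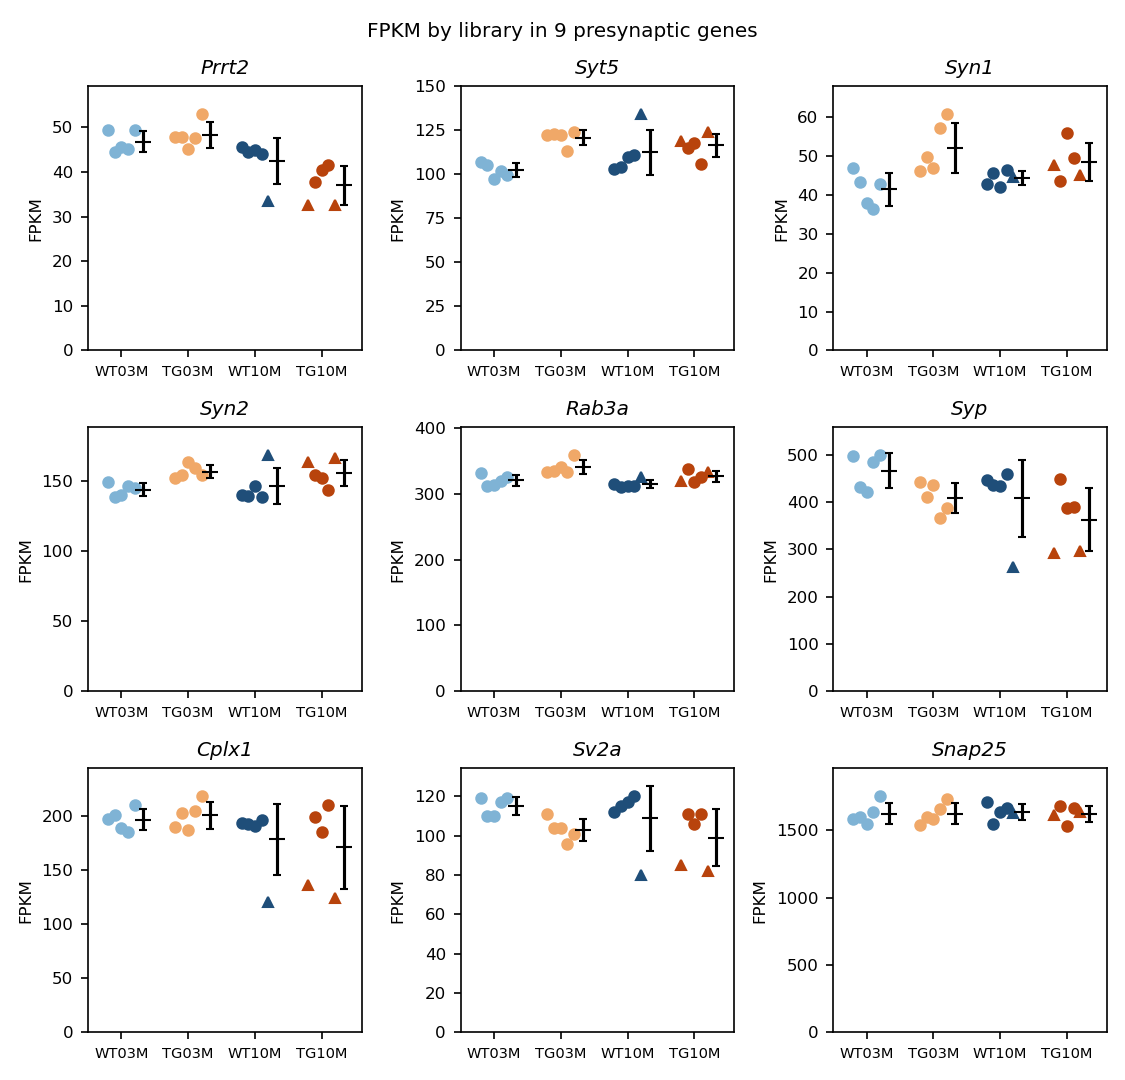
Each panel gives the FPKM of 1 presynaptic gene in the 20 libraries by group, with the group mean and SD in black and triangles for the 3 libraries apart. Syt5 and Syn2 have every TG03M point above every WT03M point, the triangles are low in Prrt2, Syp, Cplx1 and Sv2a, and Snap25 is level across groups.

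By role, no member of any group passed the limma test between genotypes in the fit of all 20 libraries. Among the 9 vesicle membrane genes and synapsins, the median log2 difference was 0.01 at 3 months and 0.02 at 10 months. Among the 10 SNARE, complexin and SNARE-recycling genes it was 0.02 and -0.02, and among the 8 calcium sensors and C2-domain genes 0.03 and 0.02. Without the 3 libraries apart, these 10-month medians were -0.01, 0.01 and 0.08. The 8 active zone scaffold and priming genes had -0.03 and -0.08, and none passed the limma test (lowest adjusted p = 0.361). At 10 months 7 of 8 were below 0, with and without the 3 libraries. Over all genes 50.2% were above 0 with all libraries, and the 8 genes share these libraries, so their signs are a description. Bsn, which encodes the scaffold Bassoon, differed by 0.22 (SE 0.11) at 3 months and by -0.12 (SE 0.11) at 10 months. It was at 34.8, 33.3, 28.4, 25.7 and 30.7 FPKM in WT03M and at 30.6, 31.5, 31.7, 40.9 and 45.1 in TG03M, and only TG03M replicates 4 and 5 were above every WT03M library. At 10 months Bsn was at 34.6, 35.1, 35.7, 35.3 and 30.6 in WT10M and at 31.0, 29.8, 38.6, 31.2 and 27.6 in TG10M.

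**Figure D3:**
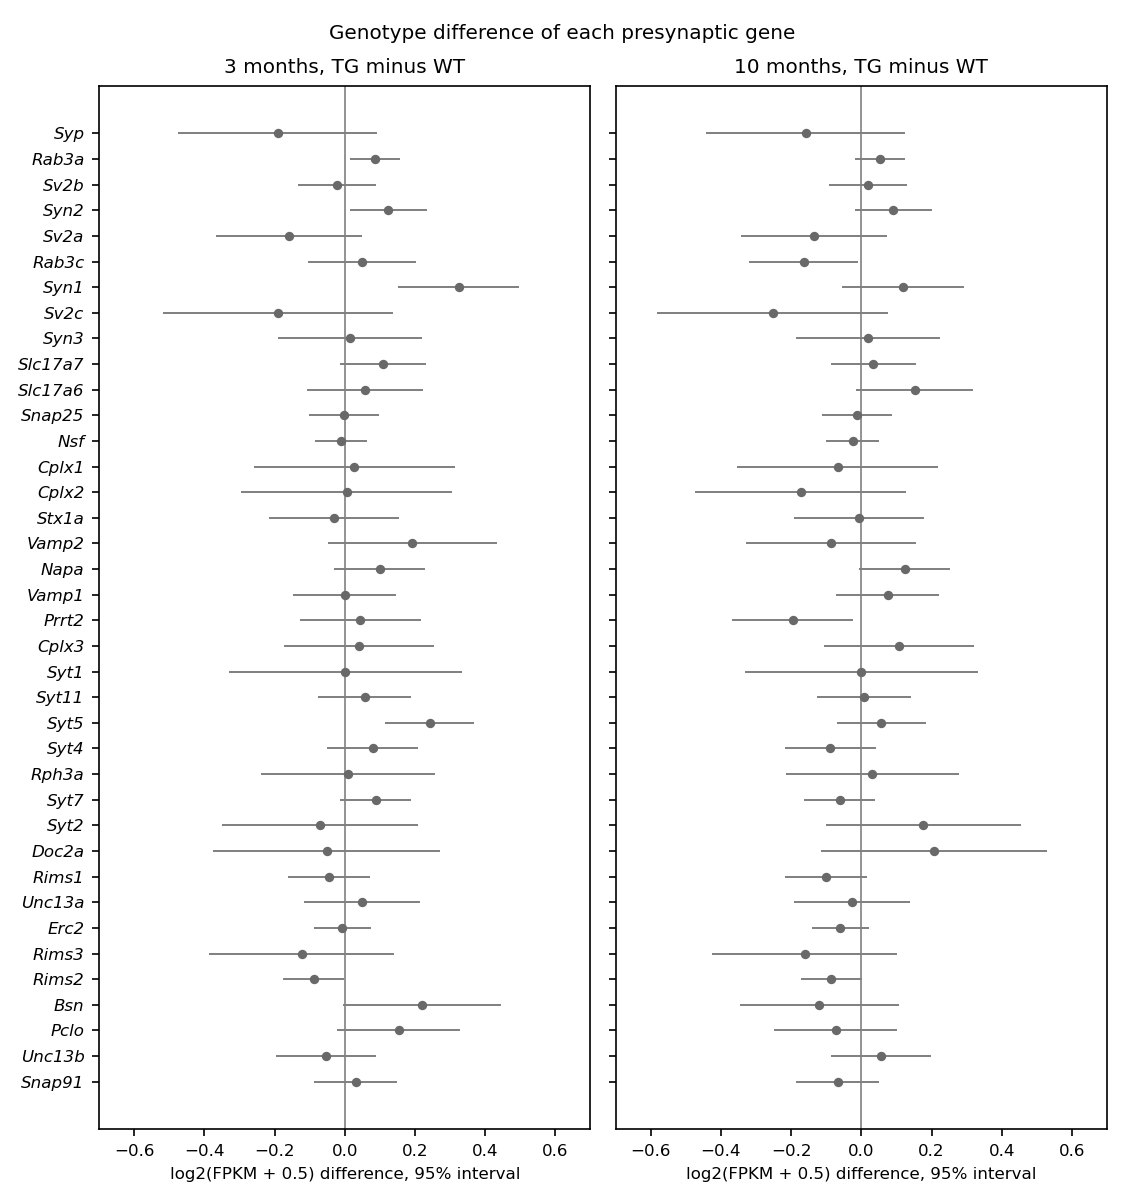
Points are TG minus WT differences in log2(FPKM + 0.5) at 3 months (left) and 10 months (right) for each presynaptic gene, ordered by role from vesicle membrane (top) to clathrin coat (bottom), with 95% intervals from limma. Syn1 and Syt5 lie farthest to the right at 3 months, and most intervals of both panels include 0.

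Age was compared within each genotype, and these comparisons use the same libraries as those above. From WT03M to WT10M no member passed the limma test (0.0656% of all genes did, 0.051% as risen and 0.0146% as fallen), and 3 had an unadjusted p under 0.05 (6.72% of genes). The median difference of the members was -0.03, with 12 of 38 above 0. Over all genes it was -0.003, with 48.5% above 0. Without the 3 libraries apart the median of the members was 0.00, with 21 above 0, and that of all genes was -0.004. Stx1a, the plasma membrane syntaxin gene, had the largest difference, -0.23 (SE 0.09, limma adjusted p = 0.583), and -0.16 without them. Pclo, which encodes the scaffold Piccolo, was at 25.1, 21.8, 22.2, 20.3 and 23.6 FPKM in WT03M and at 26.4, 26.5, 26.2, 26.3 and 22.6 in WT10M, a log2 difference of 0.18 (SE 0.08, limma adjusted p = 0.726). Only replicate 5 of WT10M overlapped the younger group. Syn3 was the only member without overlap, and it was higher at 10 months (0.86% of genes were, and 0.794% were lower). Without the 3 libraries apart, Syn3, Rab3c and Pclo were higher without overlap (1.81% of genes were, and 1.58% were lower), and still none passed the test (0.0656% of genes rose and 0.0146% fell).

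From TG03M to TG10M, 1 member fell and none rose, where 0.204% of all genes fell, 0.641% rose and 0.845% changed in either direction. Prrt2 was at 47.9, 47.9, 45.1, 47.6 and 52.9 FPKM in TG03M and at 32.6, 37.7, 40.5, 41.6 and 32.5 in TG10M, with no overlap. The log2 difference was -0.39 (SE 0.08, limma adjusted p = 0.0294), and without the 3 libraries apart it was -0.27 (adjusted p = 0.0275), where 0.0656% of all genes fell and 0.466% rose. The call was lost with only the 2 groups in the fit (adjusted p = 0.0728), with the replicate number as a block (0.0590), and on leaving out TG03M replicate 2, 4 or 5 (0.0580, 0.0522 and 0.0814) or TG10M replicate 1 or 5 (0.0980 and 0.0884). In wild type mice Prrt2 differed by -0.15 with age (SE 0.08, limma adjusted p = 0.829), and by -0.06 without the 3 libraries apart, and the interaction of genotype and age was -0.24 with a 95% interval from -0.48 to 0.00 (limma adjusted p = 0.962).

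10 members had an unadjusted p under 0.05 in TG10M against TG03M, where 16.1% of all genes did. Slc17a7 was at 354, 332, 345, 319 and 351 FPKM in TG03M and at 280, 316, 307, 316 and 274 in TG10M, a log2 difference of -0.19 (SE 0.06, limma adjusted p = 0.124), and of -0.12 without the 3 libraries apart. With Erc2, an active zone scaffold, and Prrt2 it was lower without overlap, both with and without the 3 libraries apart (1.57% and 2.65% of all genes were), while none was higher (1.84% and 3.26%). Cplx2, Vamp2 and Stx1a had log2 differences of -0.33, -0.31 and -0.21, and Syt2 had 0.29, none past the test. These were -0.11, -0.17, -0.11 and 0.45 without the 3 libraries apart, again none past the test. The median over the members was -0.06 with all libraries and -0.04 without the 3, beside 0.0009 and -0.0015 over all genes. In the interaction, none of the 38 passed (0.0364% of all genes did, and 0.0292% without the 3 libraries apart), and 3 had an unadjusted p under 0.05, Bsn, Syt5 and Syt7 (5.04% of genes).

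The differences of presynaptic genes between the 3 libraries apart and the other 10-month libraries reached -0.63 on the log2 scale, in Cplx2, and 0.35, in Doc2a. The set was found on all tested genes, the members included, so its values are a description. 16 of the 38 were lower in all 3 than in each of the 17 others, where 14% of all genes were, 1 was higher (Napa; 9.19%), and 21 overlapped. Against the 7 other 10-month libraries alone, 17 were lower (18.7% of genes) and 3 higher (15.6%). The median log2 difference from those 7 was -0.21 for the members and 0.02 for all genes. 28 of 38 were below 0, as were 47.5% of all genes, and 20 lay at or below -0.2, as did 22.3% of all genes. The summed FPKM of the 38 genes was 5016 to 5109 in the 3 libraries and 5364 to 5936 in the 17.

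Syp was at 262 FPKM in WT10M replicate 5 and at 293 and 297 in TG10M replicates 1 and 5, against 367 to 499 in the 17 others. Cplx1, a complexin gene whose product binds the assembled SNARE complex, was at 120, 136 and 124 in the same libraries, against 185 to 218. Cplx2, the second complexin, was at 86.3, 94.9 and 89.6, against 115 to 158. None of these 3 genes overlapped. Their log2 differences from the 7 other 10-month libraries were -0.59, -0.62 and -0.63.

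The vesicle SNARE gene Vamp2 was at 79.9, 86.9 and 88.9 FPKM, against 97.6 to 147 in the 17 others. Sv2a was at 80.0, 84.9 and 82.0, against 95.6 to 120. Rims3, a short RIM of the active zone, was at 32.0, 29.8 and 30.0, against 32.4 to 48.5. Prrt2 was at 33.4, 32.6 and 32.5, against 37.7 to 52.9. These genes, like Syp and the complexins, were named after their values were seen. The other 9 that were lower in all 3 were Rab3c, Slc17a7, Stx1a, Syt7, Syt11, Rph3a, Rims1, Unc13a and Snap91.

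Paralogs of these genes did not all follow. Sv2b was at 193 to 201 FPKM in the 3 libraries, 108% of the mean of the 7 others, while Sv2a was at 72.7% of it. Vamp1 was at 97.5% and Vamp2 at 74.0%. Syn2 was at 115% and Syt5 at 115%, Syn1 at 98.5% and Snap25 at 99.5%. Nsf was at 97.6%, while its cofactor gene Napa was at 92.5, 96.5 and 93.3 FPKM against 71.0 to 91.7 in the 17 others. 5 of the 10 SNARE, complexin and recycling genes, 3 of the 9 vesicle membrane and synapsin genes, 3 of the 8 calcium sensors and 3 of the 8 active zone genes were lower than in all others.

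**Figure D4:**
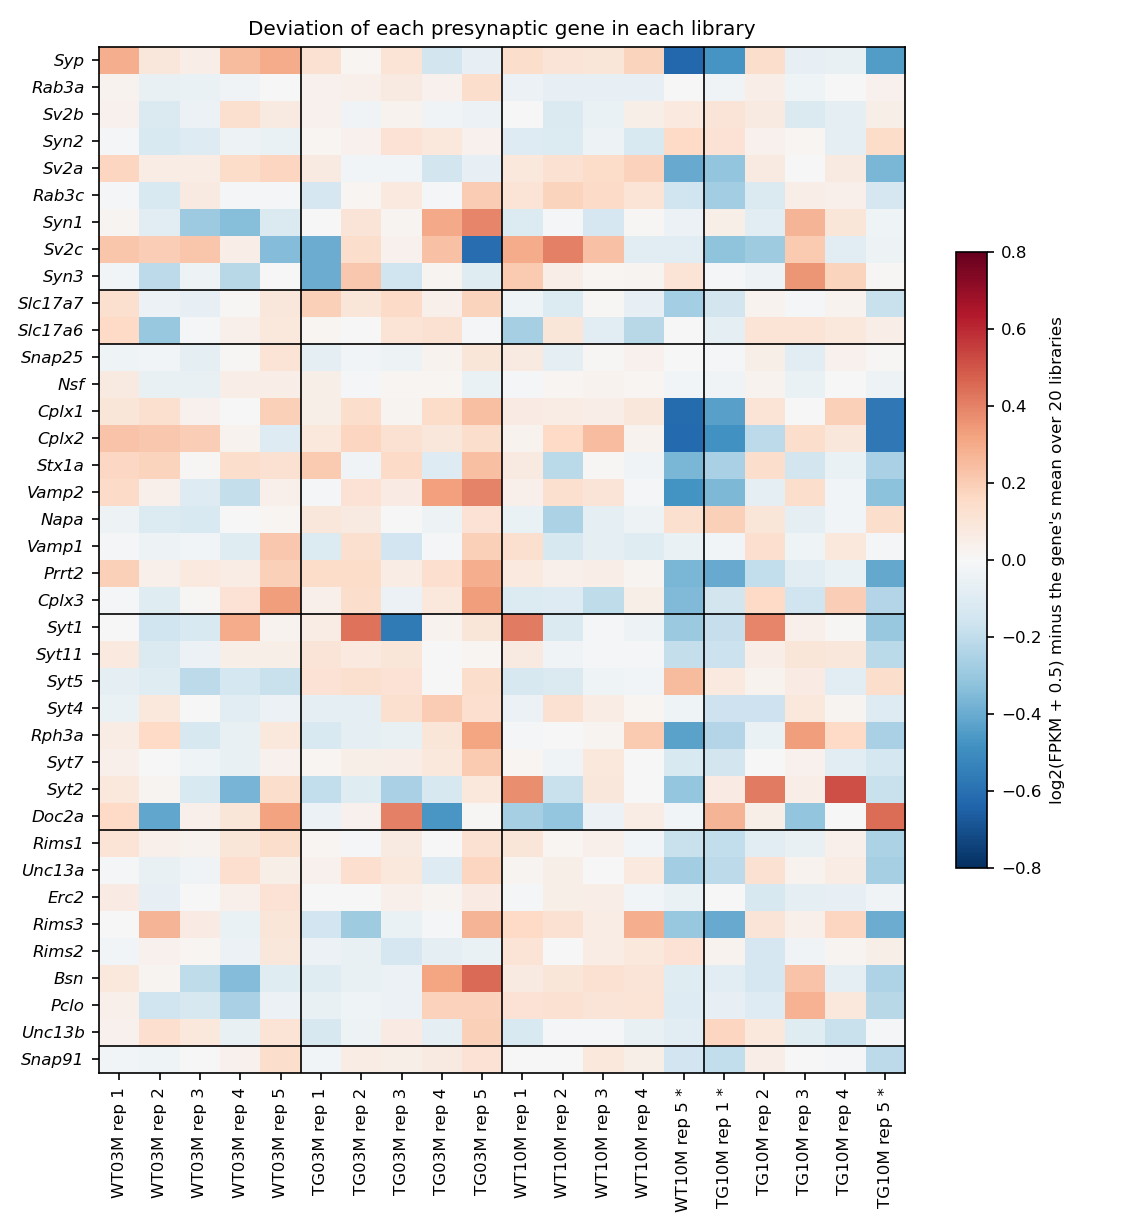
Colours give log2(FPKM + 0.5) minus the gene's mean over the 20 libraries, with presynaptic genes in rows grouped by role and libraries in columns grouped by genotype and age; asterisks mark the 3 libraries apart. Blue runs down the 3 marked columns for Syp, Sv2a, Cplx1, Cplx2, Vamp2 and Prrt2, while Snap25 and Nsf stay pale throughout.

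The 3 libraries were grouped because they lie together on the first component, so a like direction in both genotypes is part of that choice. WT10M replicate 5 against the other WT10M libraries and TG10M replicates 1 and 5 against the other TG10M libraries were both below 0 for 26 of the 38 genes, as for 39% of all genes. Both were above 0 for 6 (41.7% of all genes), and the signs were opposite for 6 (19.4%), Syn1, Syn3, Rab3a, Slc17a6, Unc13b and Erc2. Syp differed by -0.76 in wild type and -0.46 in transgenic libraries, Cplx1 by -0.69 and -0.60, and Cplx2 by -0.74 and -0.54. Syt5 differed by 0.33 and 0.11, Syn2 by 0.26 and 0.14, and Doc2a by 0.12 and 0.45.

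**Figure D5:**
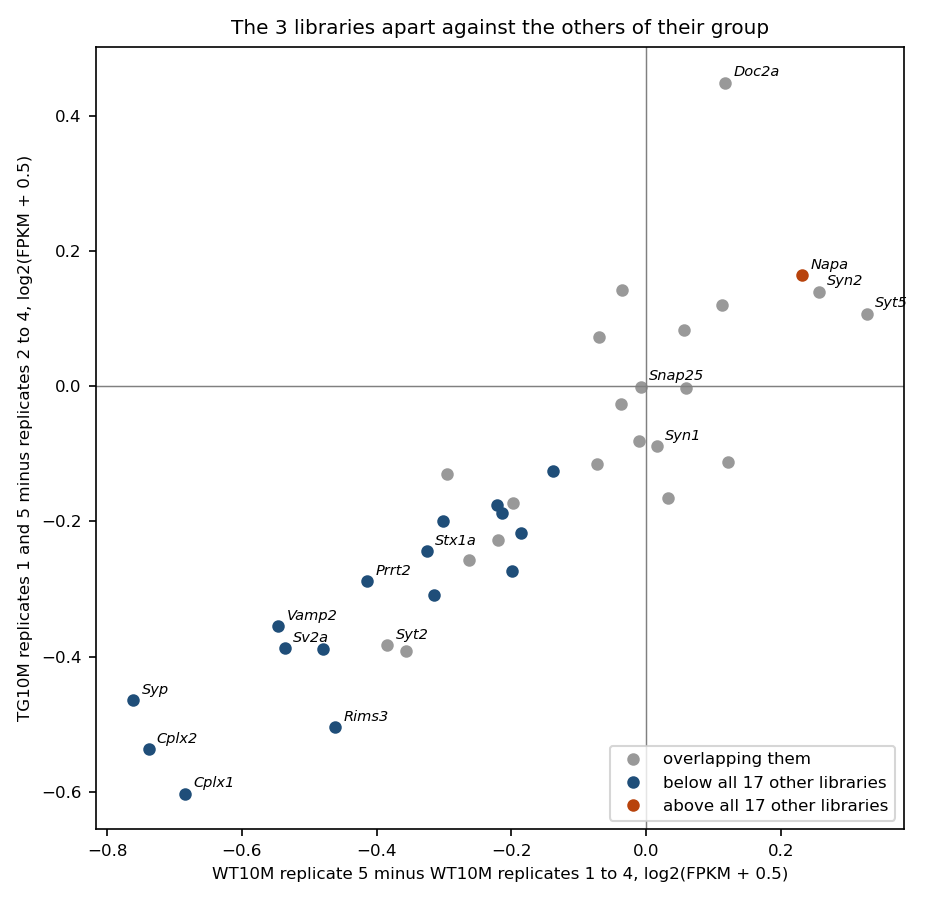
Each point is 1 presynaptic gene, with the log2 difference of WT10M replicate 5 from the other WT10M libraries on the x axis and that of TG10M replicates 1 and 5 from the other TG10M libraries on the y axis. Syp, Cplx1 and Cplx2 lie at the lower left, Napa at the upper right, and Snap25 near the origin.

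Several measures moved with the 3 libraries. Their depth was 28.9 to 30.1 M fragments, against 22.6 to 30.1 M in the 17 others. Over 13669 genes, the Spearman rho of transcript length with the difference from the 7 other 10-month libraries was -0.31, given as a description since genes share these libraries. The members' median transcript length was 3786 bases, against 2863 over all tested genes. Excitatory neuron markers summed to 272 to 282 FPKM in the 3 libraries and 353 to 469 in the 17 others, with 5 of 11 lower than in all others. The largest part of that sum was Camk2a, at a mean of 180.5 FPKM over the 20 libraries. It differed by -0.90 from the 7 other 10-month libraries, where the median of the 11 markers was -0.30. Only Neurod2 (0.18) and Emx1 (0.12) were above 0. Of 8 pan-neuron markers 3 were lower and 1 was higher, and of 10 inhibitory neuron markers 2 were lower. Of 10 astrocyte markers 1 was lower and 2 were higher, and of 10 microglia markers 1 was higher. Over all genes 14% were lower and 9.19% were higher. No marker of these lists was at 0 in every library. The part of length, depth and cell makeup in the set's values was not tested.

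Cell type markers also moved with genotype at 10 months. 4 of 10 microglia markers and 2 of 10 astrocyte markers rose in TG10M by limma, and 5 and 6 of 10 without the 3 libraries apart (0.583% and 1.28% of all genes rose). Summed astrocyte markers were at 1516 to 1678 FPKM in TG10M against 1237 to 1401 in WT10M. Of 9 oligodendrocyte markers all were higher in TG10M (median 0.19), as were all 6 endothelial markers (median 0.32), none past the test. Of 11 cortical excitatory neuron markers 9 were lower (median -0.11; -0.06 and 6 of 11 without the 3 libraries apart, where 1 fell). All 10 striatum markers were lower in TG10M, with a median log2 difference of -0.57 and none past the test, and their sum was 203 to 456 FPKM in TG10M and 386 to 560 in WT10M. None of the 10 was at 0 in any library. The part of these shifts in the members' values was not tested.

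The other genes of vesicle release were read from a list of 85, of which 83 were tested. At 10 months 0 of 83 passed the limma test in either direction, 17 had an unadjusted p under 0.05 (14.1% of all genes did), and the 2 with the smallest p were Slc17a8, vesicular glutamate transporter 3, at -0.26 (adjusted p = 0.159) and Ap3b2, a neuronal adaptor subunit, at 0.13 (adjusted p = 0.182). Without the 3 libraries apart, 2 of the 83 rose and 1 fell at 10 months (1.28% and 1.09% of all genes), and 4 rose and 3 fell at 3 months (1.53% and 1.92%). With all libraries 1 rose and none fell at 3 months (0.277% and 0.0219% of all genes). Rab3b, a paralog of Rab3a, was at 24.1, 22.6, 22.6, 21.7 and 22.7 FPKM in WT03M and at 34.0, 26.8, 31.9, 34.9 and 28.2 in TG03M, with no overlap and a log2 difference of 0.44 (SE 0.09, limma adjusted p = 0.0329). In the age comparisons none of the 83 passed by limma, and 5 in wild type and 18 in transgenic mice had an unadjusted p under 0.05 (6.72% and 16.1% of all genes). Among the smallest p were those of Dnm3 (log2 difference 0.19) in wild type mice. In transgenic mice they were those of Syt17 (log2 difference -0.28) and Txlnb (0.31), the latter at a mean of only 0.74 FPKM. In the 3 libraries apart, 16 of the 83 were lower than in all 17 others and 10 were higher (14% and 9.19% of all genes), and the median difference from the 7 other 10-month libraries was -0.03.

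The 38 genes had 106 deposited transcripts, 9 genes had 1, and in 9 of the other 29 a single transcript held at least 90% of the gene. Syp-201 and the short Syp-202, of 2591 and 494 bases, held 52.4% and 47.6% of Syp. In the 3 libraries apart both were lower than in each of the 17 others, at 133 to 145 against 194 to 273 FPKM and at 129 to 153 against 172 to 232. Rab3a-201 held 72.1% of Rab3a and Prrt2-201 held 99.9% of Prrt2. Rims1, a long RIM, was spread over 8 transcripts, of which Rims1-202 held the most at 45.5%.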

How the data were processed

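The values are FPKM per transcript, deposited by the authors, for total RNA of 20 cortex libraries sequenced on an Illumina HiSeq 4000, per the labels; RNA integrity numbers were above 7. The submitters' processing notes name GRCm38 (mm10), CASAVA, TopHat2, Cuffdiff and DESeq2; no source used here gives their roles or versions. No read counts were used, and depth was inferred from the steps of low values in 1815 genes. Transcript FPKM were summed per gene (50660 transcripts, 21949 genes), and genes with a mean of at least 0.5 FPKM were tested on log2(FPKM + 0.5) with limma 3.58.1 in R 4.3.3, two-sided, in one fit of 4 group means with 16 residual degrees of freedom and Benjamini-Hochberg adjustment over 13722 genes. The script was tested on simulated data. Intervals are 95% intervals from limma. Coordinates are from GENCODE M21. The members and lists were chosen with earlier results of these data known. Members with per-library values were those called in any comparison plus those with the smallest p in the genotype comparisons, up to 12; others were named after their values were seen. The other release genes named are those called, or the 2 with the smallest p, except 1 gene that is not reported here. Alternatives were pseudocounts of 0.1 and 1, no filter or a mean of at least 1 FPKM, median centring, quantile normalization, the most abundant transcript of each gene, only the groups compared, array weights, the replicate number as a block, leaving out each library or the 3 libraries apart, and, chosen after seeing the files, a term for those 3. Library medians lay within 0.031 of their mean on the log2 scale, and replicates correlated at 0.978 to 0.994 across genes.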

Additional observations from a re-analysis of the deposited data

Results flagged for a closer look

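14 of 152 gene and group combinations (9.21%) had 1 library far from the other 4. Chance alone flags about 1 in 20 of independent combinations, but these genes share their libraries, so the share is a description. Of the 14, 11 were WT10M replicate 5, one of the 3 libraries already set apart on all tested genes. That library was low, in FPKM, for Syp at 262 (others 434 to 460), Cplx1 at 120 (191 to 196), Sv2a at 80.0 (112 to 120), Vamp2 at 79.9 (111 to 122) and Prrt2 at 33.4 (43.9 to 45.6). It was also low for Unc13a at 54.1 (65.6 to 69.5), Rab3c at 51.8 (62.5 to 65.8), Bsn at 30.6 (34.6 to 35.7) and Pclo at 22.6 (26.2 to 26.5). It was high for Syn2 at 168 (138 to 146) and Syt5 at 134 (103 to 111).

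The remaining libraries were WT03M replicate 5 for Vamp1 at 51.5 (41.5 to 44.0), WT10M replicate 1 for Vamp1 at 48.4 (40.5 to 42.7) and TG03M replicate 4 for Syt5 at 113 (122 to 124).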

How the results depend on the processing

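With all libraries, 0 members were called between genotypes at 10 months; array weights gave 1, and leaving out 1 replicate gave 0 to 3, the 3 without WT10M replicate 5. At 3 months the count of 0 became 1 with only the 2 groups or with array weights, 4 without the 3 libraries apart, 4 with a term for them (an alternative chosen after seeing the data), and 0 to 1 on leaving out 1 replicate. With age in TG mice the count of 1, Prrt2, became 0 with only the 2 groups, 0 with the replicate block, and 0 to 1 on leaving out 1 replicate. Deviations from each gene's group mean were correlated between same-numbered libraries. The correlation was -0.17 to 0.66 for TG10M and WT10M and -0.43 to 0.10 for TG03M and WT03M. The 0.66 was that of replicates 5, both among the 3 libraries apart. The numbers were therefore not taken to pair the libraries, and the block changed no other count of members called. Members without overlap became 5 at 10 months and 3 with age in WT mice without the 3 libraries apart, and 0 with age in WT mice after median centring. Over all genes the counts of calls varied more: 87 at 10 months became 16 with only the 2 groups and 1600 without WT10M replicate 5, 41 at 3 months became 492 with the term, and 116 with age in TG mice became 52 with only the 2 groups. Over all members and alternatives, 6003 values counted as the same, 7 as weaker, 15 as stronger and 17 as moved, and no called value changed sign. A value not called counted as the same if it lay within 1 residual SD of the main value, whatever its sign. The interaction of Syt1, for example, kept its sign in 17 of 31 alternatives. Depth is known only from the steps of low values, so no counting interval is given.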

Other observations

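Some presynaptic genes were high together in single libraries of the transgenic groups. TG03M replicates 4 and 5 had Syn1 at 57.1 and 60.7 FPKM, Bsn at 40.9 and 45.1, Vamp2 at 140 and 147 and Pclo at 27.7 in both, while TG03M replicates 1 to 3 had Syn1 at 46.2 to 49.7 and Bsn at 30.6 to 31.7. TG10M replicate 3 had Syn1 at 56.0, Bsn at 38.6, Pclo at 29.7 and Rph3a at 71.9. WT03M replicate 4 had the lowest Syn1, Bsn and Pclo of all 20 libraries, at 36.4, 25.7 and 20.3. These genes were picked after their values were seen.

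Syt1, the fast calcium sensor, varied more within groups than between them. It was at 204 FPKM in TG03M replicate 3 and at 408 in TG03M replicate 2, the lowest and the highest of the 20 libraries, while the group means lay from 305 to 312.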
